A study of Mus musculus with 12 samples.

Results

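Cytokine receptor genes of the lymphoid and the myeloid lineages were followed while a mouse B cell line was turned towards macrophages by an inducible C/EBPα. The receptors were the 10 genes Il7r, Csf1r, Csf2ra, Csf2rb, Csf2rb2, Csf3r, Flt3, Kit, Il3ra and Lifr, of 18193 genes with a probe set of their own on the array. The genes were listed by name, with earlier results of these data known, and all 19 probe sets that the platform annotation maps to these symbols were read. Of these, 18 name a single gene and 1 names both Csf2rb2 and Csf2rb. A total of 8 of the 10 genes passed the filter on dim signals and were tested, and Csf3r and Kit did not pass it.

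RNA was measured on 12 one-colour arrays, with duplicates in all 6 conditions. The control line HAFTL, which was derived from fetal liver and carries the oncogene Ha-ras, received beta-estradiol. The line C10, in which the myeloid transcription factor C/EBPα can be induced, received ethanol as vehicle, or beta-estradiol for 3 h, 12 h, 24 h or 48 h. Vehicle C10 therefore carries the inducible factor without the hormone, and HAFTL received the hormone without a label that names the factor. No treatment time is given for vehicle C10 or HAFTL. Each condition rests on a single line, so in comparisons with HAFTL the line and the treatment cannot be told apart. Whether the duplicates were grown separately is not in the labels, so a p-value here covers no more than the spread of these samples, and that spread may be technical.

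Interleukin-7 receptor signalling through the chain encoded by Il7r sustains the growth of precursor B cells, and the same chain takes part in the receptor for thymic stromal lymphopoietin. Macrophages depend on the receptor kinase encoded by Csf1r, which binds M-CSF and interleukin-34. GM-CSF and interleukin-3 act through ligand-specific alpha chains, encoded by Csf2ra and Il3ra, that join a common beta chain encoded by Csf2rb, and mice carry in addition the interleukin-3-specific beta chain Csf2rb2. The G-CSF receptor gene Csf3r belongs to granulocytes, Flt3 and Kit encode growth factor receptor kinases of early progenitors, and Lifr encodes the leukaemia inhibitory factor receptor, which pairs with the gp130 chain encoded by Il6st.

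Promoter sequence was at hand for 8 of the 10 receptor genes, as RefSeq gives it for the GRCm38.p6 build, and was read over the 250 bases before each transcription start. The letters AGGAAG, a core bound by PU.1 and other ETS factors, were searched on both strands, as was TTGCGNAA, a form of the C/EBP site. AGGAAG was present in 29.5% of all 32851 promoter windows of this length, and TTGCGNAA in 0.67%. TTGCGNAA was in no window of the 8 receptor genes, of which Kit and Lifr have more than 1 window each. AGGAAG was found in those of Il7r, Csf2ra, Csf2rb2, Csf3r, Kit and Il3ra, and not in those of Flt3 and Lifr. The Il7r window (chr15:9529877-9530126, minus strand), that of Csf2ra (chr19:61228419-61228668, minus strand) and that of Csf2rb2 (chr15:78305722-78305971, minus strand) are printed because Il7r transcripts fell while those of Csf2ra and Csf2rb2 rose. All are written 5′ to 3′ in the direction of transcription, ending next to the start. Capitals mark AGGAAG, or CTTCCT where the match lies on the opposite strand.
Il7r: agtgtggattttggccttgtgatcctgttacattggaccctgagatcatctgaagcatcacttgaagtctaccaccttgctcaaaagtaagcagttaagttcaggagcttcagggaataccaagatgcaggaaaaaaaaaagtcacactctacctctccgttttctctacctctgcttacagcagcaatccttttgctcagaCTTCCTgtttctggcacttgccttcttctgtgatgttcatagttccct
Csf2ra: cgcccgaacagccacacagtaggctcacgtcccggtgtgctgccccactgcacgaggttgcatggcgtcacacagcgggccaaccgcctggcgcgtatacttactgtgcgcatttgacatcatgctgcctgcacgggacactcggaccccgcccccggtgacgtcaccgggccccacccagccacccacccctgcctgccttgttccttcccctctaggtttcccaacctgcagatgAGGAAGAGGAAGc
Csf2rb2: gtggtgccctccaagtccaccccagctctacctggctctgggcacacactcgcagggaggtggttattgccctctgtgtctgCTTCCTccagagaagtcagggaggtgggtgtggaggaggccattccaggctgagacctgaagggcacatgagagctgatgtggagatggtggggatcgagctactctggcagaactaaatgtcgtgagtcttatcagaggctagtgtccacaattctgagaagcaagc
The match in Il7r lay 48 to 43 bases before the start, on the strand opposite to transcription. Csf2ra held 2 adjoining matches, 13 to 8 and 7 to 2 bases before the start, and Csf2rb2 held 1 match 168 to 163 bases before it, on the opposite strand. These matches describe the letters in the windows and show no binding.

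Il7r fell and Csf2rb rose from 3 h on, and Csf1r, Csf2ra, Csf2rb2 and Il3ra rose later. Il7r was 7.22-fold lower after 3 h and 62.5-fold lower after 24 h than in vehicle C10, Csf1r was 3.37-fold higher after 12 h and 82.1-fold higher after 48 h, and Csf2ra, Csf2rb2, Csf2rb and Il3ra were 4.15-fold to 9.61-fold higher after 48 h. Lifr took another course, with a deep fall at 3 h and a return by 48 h. Flt3, Csf3r and Kit gave little or no signal. All levels are array signals after quantile normalisation, and changes are differences of mean log2 signal with the standard error (SE) of the fit. In these bulk samples, fewer cells with a transcript and less of it per cell cannot be told apart.

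**Figure D1:**
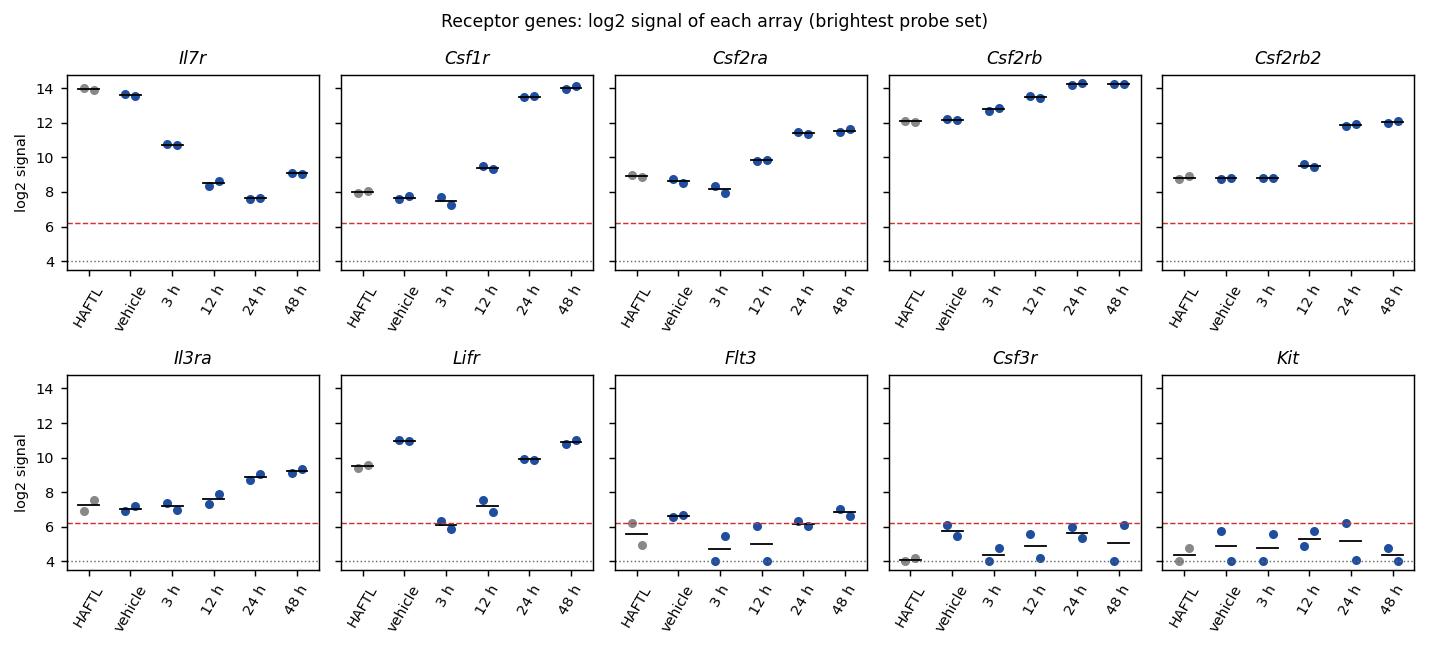
Log2 signal of the brightest probe set of each receptor gene (vertical axis) in the 2 arrays of each condition (points; HAFTL in grey, C10 in blue), with the group mean as a bar. The dashed line is the filter level of 6.22 and the dotted line the floor, a signal of 16. Il7r drops from 3 h on, Csf1r, Csf2ra, Csf2rb2 and Il3ra climb between 3 h and 24 h, Lifr drops and returns, and Csf3r and Kit lie near or under the filter level. Levels of different genes cannot be compared.

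Il7r, represented by probe set 1448575_at, read 16583 and 14997 in HAFTL, 12927 and 11842 in vehicle C10, 1772 and 1659 after 3 h, 330.1 and 396 after 12 h, 192 and 203 after 24 h, and 549 and 531 after 48 h. The order of the groups ran from HAFTL through vehicle C10, 3 h, 48 h and 12 h to 24 h, and no neighbouring groups overlapped. The log2 change against vehicle C10 was -2.85 after 3 h, -5.10 after 12 h, -5.97 after 24 h and -4.52 after 48 h (SE 0.11, n = 2 per group), with adjusted p from 1.6e-06 to 4.3e-08 by limma with Benjamini-Hochberg adjustment over all 11696 genes tested. Each step differed as well: Il7r changed by -2.25 from 3 h to 12 h (adjusted p = 1.4e-05) and by -0.87 from 12 h to 24 h (adjusted p = 4e-04), and then rose by 1.45 from 24 h to 48 h (adjusted p = 0.00013, limma). The rise after 24 h left the 48 h signal 22.9-fold below vehicle C10. With the arrays scaled on spike-in controls the step from 12 h to 24 h was -1.29 (adjusted p = 0.051) and that from 24 h to 48 h was 1.73 (adjusted p = 0.026).

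The other Il7r probe set, 1448576_at, gave changes of -2.80, -5.22, -5.99 and -4.67 at the same times (SE 0.18), and a rise of 1.31 after 24 h (adjusted p = 0.0029, limma over all probe sets tested). At 24 h 1 of its 2 arrays read 61.6, under the filter level, so the sizes of its 24 h change and of the later rise are uncertain. In HAFTL, Il7r did not pass the threshold against vehicle C10: the difference was 0.35 (95% interval 0.10 to 0.60, adjusted p = 0.067). The other probe set put it at 0.74 (adjusted p = 0.041), and the first passed with the stricter filter (adjusted p = 0.037) or an intensity trend (adjusted p = 0.025).

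Csf1r, the M-CSF receptor gene, took the opposite course and started later. Probe set 1419872_at read 244 and 262 in HAFTL, 190.0 and 215 in vehicle C10, 212 and 151 after 3 h, 715 and 646 after 12 h, 11529 and 11869 after 24 h, and 15599 and 17627 after 48 h. Vehicle C10 and 3 h overlapped, and from 12 h on every array lay above all earlier ones. The change at 3 h was -0.18 ± 0.16 (SE, 95% interval -0.55 to 0.20, adjusted p = 0.41), and it turned to 0.42 with spike-in scaling and to 0.07 without the second 3 h array. Without the first 3 h array it was -0.42 (adjusted p = 0.037). Csf1r was then higher by 1.75 after 12 h, 5.86 after 24 h and 6.36 after 48 h (adjusted p = 7.6e-05, 1.9e-07 and 6.7e-08, limma). The largest step was that from 12 h to 24 h, with 4.10 ± 0.16, or 17.2-fold.

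From 24 h to 48 h Csf1r differed by 0.50 ± 0.16 (adjusted p = 0.053). That step passed the threshold without the first 3 h array or without the second one (adjusted p = 0.015 each). It also passed with the stricter filter (0.027), an intensity trend (0.016), a floor of 64 (0.04), a pseudocount of 16 (0.041) and the mean of the Csf1r probe sets (0.0079). The other probe sets of Csf1r showed the same order of times from 12 h on with smaller changes. At 48 h they gave 5.71 (1419873_s_at) and 4.34 (1423593_a_at), and at 12 h 1.41 (adjusted p = 0.00066) and 0.43 (adjusted p = 0.13, limma).

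Chains of the GM-CSF and interleukin-3 receptors rose with different starting points. Csf2ra, the ligand-binding chain for GM-CSF, read 506 and 467 in HAFTL, 425 and 361 in vehicle C10, 328 and 249.9 after 3 h, 875 and 939 after 12 h, 2826 and 2565 after 24 h, and 2864 and 3131 after 48 h. The 3 h arrays lay under both vehicle arrays, and those from 12 h on lay above every array of HAFTL, vehicle C10 and 3 h. Csf2ra was higher by 1.21 ± 0.15 after 12 h, by 2.78 after 24 h and by 2.93 after 48 h (adjusted p = 3e-04, 2.8e-06 and 1.3e-06, limma). At 3 h it had fallen, with a change of -0.45 ± 0.15 (adjusted p = 0.035) that turned to 0.12 with spike-in scaling. The call was lost without the first vehicle array (-0.33, adjusted p = 0.18), without the second 3 h array (-0.26, adjusted p = 0.19), without a filter on dim genes (adjusted p = 0.059) and with only these 2 groups in the fit (adjusted p = 0.15). The dimmer probe set 1420704_at gave -0.14 after 3 h (adjusted p = 0.55), 0.20 after 12 h (adjusted p = 0.39), 0.74 after 24 h (adjusted p = 0.0082) and 1.27 after 48 h (adjusted p = 0.00043, limma), so only the 24 h and 48 h rises were called for both.

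Csf2rb, the common beta chain, was well above the filter level before induction and rose from 3 h on. Probe set 1455660_at read 4478 and 4292 in HAFTL, 4756 and 4563 in vehicle C10, 6667 and 7315 after 3 h, 11856 and 10937 after 12 h, 18779 and 19805 after 24 h, and 19561 and 19119 after 48 h. HAFTL lay just under vehicle C10, each time up to 24 h lay above the one before, and 24 h and 48 h overlapped. The change was 0.58 ± 0.08 after 3 h (adjusted p = 0.00062), 1.29 after 12 h, 2.05 after 24 h and 2.05 after 48 h (adjusted p = 1.1e-05, 7.7e-07 and 3.9e-07, limma). The other probe set, 1421326_at, gave 0.49, 1.19, 2.21 and 2.02. Of the 8 tested receptors, Csf2rb was the single one called higher than vehicle C10 at 3 h.

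Csf2rb2, the interleukin-3-specific beta chain, stood near its vehicle level at 3 h and rose afterwards. It read 426 and 476 in HAFTL, 433 and 449.8 in vehicle C10, 445 and 442 after 3 h, 773 and 698 after 12 h, 3570.1 and 3946 after 24 h, and 4079.7 and 4407 after 48 h. The HAFTL, vehicle and 3 h arrays overlapped, and every later array lay above them. The change at 3 h was 0.01 ± 0.09 (95% interval -0.21 to 0.23, adjusted p = 0.96), and it was -0.13 without quantile normalisation, -0.02 with median centring and -0.02 without the first vehicle array. Csf2rb2 was higher by 0.74 after 12 h, 3.09 after 24 h and 3.26 after 48 h (adjusted p = 0.00041, 2.8e-07 and 1e-07, limma).

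Csf2rb and Csf2rb2 are neighbours on mouse chromosome 15, with 1 gene and 0 protein-coding genes between them, and are close relatives. Probe set 1450200_s_at, which the annotation gives to both, changed by 1.17, 2.24, 3.03 and 2.96 at the 4 times (SE 0.18). Its rise at 3 h (617 and 615 against 259 and 289 in vehicle C10, adjusted p = 0.0018) was called as were those of the Csf2rb probe sets, while the change of the Csf2rb2 probe set was not. How the signal of this probe set divides between the genes was not tested, and probes of either gene may detect the other.

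Il3ra, the interleukin-3 receptor alpha chain, varied more between duplicates, with an SE of 0.29. Its arrays read 119 and 192 in HAFTL, 122 and 145 in vehicle C10, 169 and 128 after 3 h, 159 and 241 after 12 h, 424 and 542 after 24 h, and 557 and 660.1 after 48 h. HAFTL, vehicle C10 and 3 h overlapped, and 24 h and 48 h lay above all of them. The change did not pass the test at 3 h (0.14, adjusted p = 0.72, and -0.06 without the first 3 h array) or at 12 h (0.56, 95% interval -0.13 to 1.24). Il3ra was higher by 1.85 at 24 h and 2.19 at 48 h (adjusted p = 0.00096 and 0.00032, limma). Its step from 12 h to 24 h, 1.29 (adjusted p = 0.0083), lost its call without the first 12 h array (0.99, adjusted p = 0.054) and without the second 24 h array (1.12, adjusted p = 0.053).

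**Figure D2:**
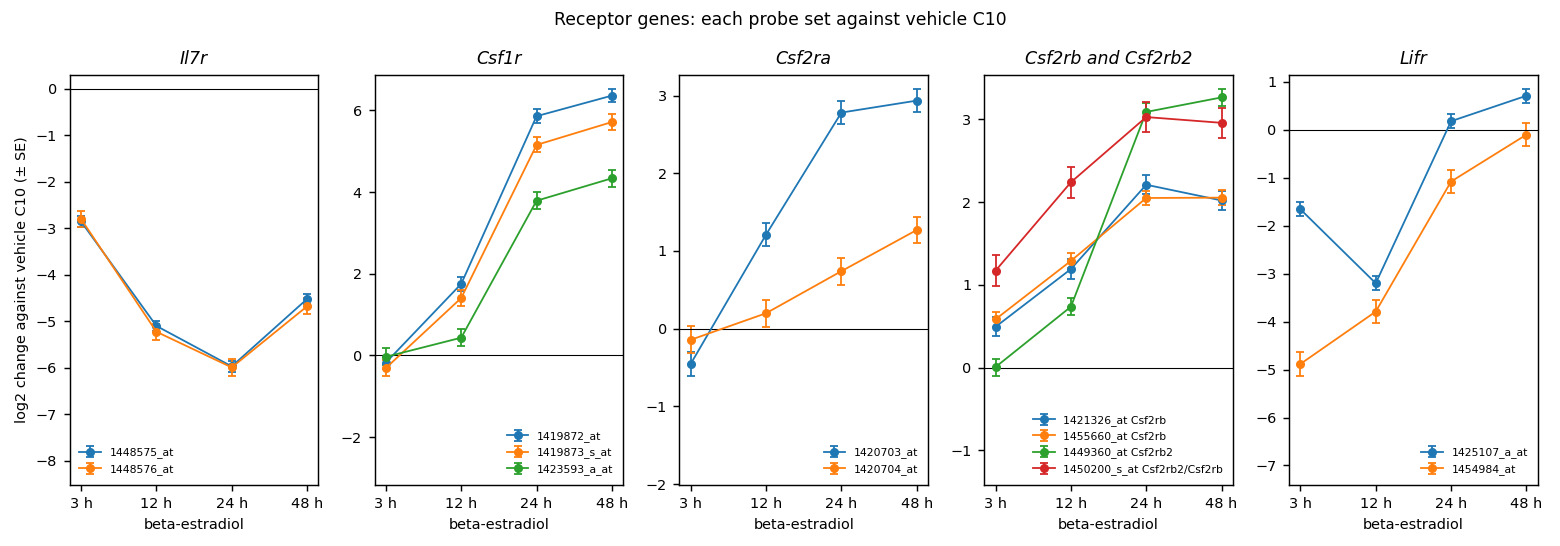
Log2 change against vehicle C10 (vertical axis, a scale of its own in each panel) of the tested probe sets of Il7r, Csf1r, Csf2ra, Csf2rb, Csf2rb2 and Lifr at 3 h, 12 h, 24 h and 48 h of beta-estradiol; points are fitted differences and bars their SE. Both Il7r probe sets run together, those of Csf1r and Csf2ra differ in size, and the Lifr probe sets reach their lowest point at 3 h (1454984_at, -4.88) and 12 h (1425107_a_at, -3.20). The size of these 2 Lifr falls is uncertain, as 1 array of the first and both of the second lay under the filter level. At 24 h 1 array of 1448576_at for Il7r also lay under that level. With spike-in scaling the 3 h points of 1419872_at for Csf1r and 1420703_at for Csf2ra turn positive, as does the 48 h point of 1454984_at for Lifr.

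Lifr, the leukaemia inhibitory factor receptor gene, was lost and regained within 48 h. Probe set 1454984_at read 688 and 758 in HAFTL, 2061 and 2009.9 in vehicle C10, 81.1 and 58.7 after 3 h, 189 and 114 after 12 h, 989 and 941 after 24 h, and 1765 and 2043 after 48 h. The 48 h arrays overlapped with vehicle C10, and every other group stood below it. The change was -4.88 ± 0.24 after 3 h, where 1 of the 2 arrays lay under the filter level so that its size is uncertain, -3.79 after 12 h and -1.08 after 24 h (adjusted p = 4.5e-06, 1.2e-05 and 0.0056, limma). The call at 24 h was lost with spike-in scaling (-0.80, adjusted p = 0.25) and with the mean of the Lifr probe sets (-0.23, adjusted p = 0.34). At 48 h the difference was -0.10 (95% interval -0.66 to 0.46, adjusted p = 0.74). It turned to 0.46 with spike-in scaling, 0.15 with the mean of the probe sets and 0.01 without the first 48 h array.

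By probe set 1454984_at Lifr then rose step by step, by 1.09 from 3 h to 12 h (adjusted p = 0.011), 2.71 from 12 h to 24 h (adjusted p = 7e-05) and 0.98 from 24 h to 48 h (adjusted p = 0.021, limma). The first of these steps was 0.86 without the second 3 h array (adjusted p = 0.062) and -0.31 with the mean of the probe sets, and with only the groups compared in the fit its adjusted p was 0.11. Spike-in scaling ended the call of the first step (1.20, adjusted p = 0.2) and of the last (1.27, adjusted p = 0.19). The last step lost its call when any 1 of the 24 h and 48 h arrays was left out, with values from 0.87 to 1.08. Probe set 1425107_a_at, with 454 and 399.8 in vehicle C10, read 128 and 143 after 3 h, 47.2 and 45.6 after 12 h, 523 and 446 after 24 h, and 637 and 765 after 48 h. Its lowest group was 12 h, not 3 h, and at 48 h it stood above vehicle C10 by 0.71 (adjusted p = 0.0036). From 3 h to 12 h this probe set was called lower (-1.54, adjusted p = 0.00045, limma). Both its 12 h arrays lay under the filter level, so the size of that fall is uncertain. The remaining Lifr probe set, 1450207_at, exceeded the filter level in 1 array of 12.

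Receptors of early progenitors and of granulocytes stayed near or under the filter level of 74.6, the median signal of all values. Flt3 read 75.1 and 31.4 in HAFTL, 95.5 and 103 in vehicle C10, 16 and 44.5 after 3 h, 65.0 and 16 after 12 h, 79.8 and 66.5 after 24 h, and 131 and 100.2 after 48 h, where 16 is the floor. Vehicle C10 and 48 h were the only groups with both arrays above the filter level. Flt3 lay under the filter level in both arrays at 3 h and at 12 h, and its mean in vehicle C10 was 1.33-fold above that level. Neither difference from vehicle C10 was called (adjusted p = 0.067 and 0.1, limma). The 95% intervals, which are not adjusted for the number of genes, ran from -3.61 to -0.18 at 3 h and from -3.33 to 0.09 at 12 h. With neither difference called after adjustment and these arrays under the filter level, a fall is not established. The fitted Flt3 difference at 48 h was 0.21 (95% interval -1.50 to 1.92). At 3 h the Flt3 call was gained without the second 3 h array (adjusted p = 0.043), without either of the 12 h arrays (0.03 each), with an intensity trend (0.037) and with a floor of 64 (0.0062), and at 12 h without the first 12 h array (0.02) and with that floor (0.0063).

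The brightest Csf3r array read 69.2, under the filter level, and 1 array of Kit, with 75.8 at 24 h, exceeded it. No level or change is given for these 2 genes. Of 9 granulocyte markers on the array 6 were tested, and 4 of these were higher at 24 h and 4 at 48 h, where 1 was lower. Among all genes tested 24.2% were called higher at 24 h and 24.2% at 48 h, where 38.2% were called lower. S100a8, Camp, Mpo and Ngp had neither vehicle array above the filter level and entered the test through other groups. The granulocyte counts are therefore not read as support for a cell type. The summed signal of the 9 was 391 to 555 in vehicle C10, 17138 to 18748 at 24 h and 10881 to 12308 at 48 h. At 48 h, 4 of the 9 were under the filter level in both arrays.

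Counted over the 8 tested receptors, calls against vehicle C10 were about as frequent as among all genes at 3 h. There 4 were called, 1 higher and 3 lower, against 48.3% of the 11696 genes tested (20.9% higher and 27.3% lower). At 12 h 6 were called, 4 higher and 2 lower, against 51% (22.3% and 28.7%). At 24 h 7 were called, 5 higher and 2 lower, against 57.4% (24.2% and 33.3%), and at 48 h 6 were called, 5 higher and 1 lower, against 62.4% (24.2% and 38.2%). The median log2 change of the 8 was -0.31, 0.65, 1.95 and 2.12 at the 4 times, and that of all genes tested was -0.06, -0.08, -0.13 and -0.19. The 8 had to pass the filter on dim signals in at least 2 arrays, so these figures do not cover Csf3r and Kit.

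The course can be read as the share of each gene's largest log2 change reached by each time, as a description with no test between genes. Il7r had reached 47.8% of its fall at 3 h and 85.4% at 12 h. At 3 h Csf1r stood at -2.77% of its rise, Csf2rb2 at 0.21%, Il3ra at 6.59%, Csf2ra at -15.4% and Csf2rb at 28.4%. At 12 h the shares were 27.5% for Csf1r, 22.5% for Csf2rb2, 25.4% for Il3ra, 41.2% for Csf2ra and 62.8% for Csf2rb. Csf2rb was thus the rising receptor nearest to Il7r at both times, and Csf1r, Csf2rb2 and Il3ra had most of their rise ahead of them when Il7r had made most of its fall. By 24 h the rising receptors stood between 84.5% and 99.8%, while Il7r reached its lowest level. The shares depended on the probe set: 1420704_at of Csf2ra stood at 15.7% at 12 h and 58.3% at 24 h, and 1423593_a_at of Csf1r at 10% at 12 h.

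**Figure D3:**
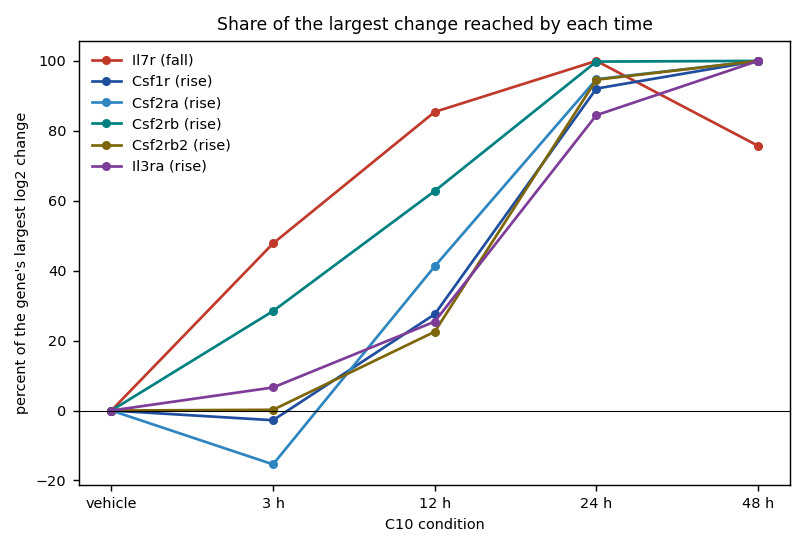
Percent of each gene's largest log2 change against vehicle C10 (vertical axis) reached in each C10 condition (horizontal axis, not to scale in time), for the fall of Il7r and the rise of Csf1r, Csf2ra, Csf2rb, Csf2rb2 and Il3ra; points come from group means of 2 arrays and carry no error bars. Il7r stands at 85.4% by 12 h and Csf1r at 27.5%; the values of Csf1r and Csf2ra below 0 at 3 h turn positive with spike-in scaling.

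The timing of each gene was tested by setting its change up to 12 h (12 h minus vehicle C10) against its change after 12 h (48 h minus 12 h). A negative difference means a larger fall before 12 h, or a larger rise after it. A total of 5 of the 8 receptors were called, 4 negative and 1 positive, against 49.9% of all genes tested (24.4% negative and 25.4% positive). For Il7r the difference was -5.68 ± 0.19 (SE, adjusted p = 4.7e-07): it changed by -5.10 before 12 h and by 0.58 after. For Csf1r it was -2.86 ± 0.28 (adjusted p = 9.7e-05), with 1.75 before and 4.61 after, and for Csf2rb2 -1.79 ± 0.16 (adjusted p = 6.8e-05, limma), with 0.74 before and 2.53 after.

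Csf2rb ran the other way, with 1.29 before 12 h and 0.76 after and a difference of 0.53 ± 0.14 (adjusted p = 0.014), which was 0.41 without the first 12 h array (adjusted p = 0.12) and was not called for its other probe set (0.36, adjusted p = 0.19, limma). Lifr had the largest difference of the 8, -7.48 ± 0.41 (adjusted p = 5.3e-06). The 3 that missed the threshold were Il3ra (-1.08, adjusted p = 0.12), Flt3 (-3.45, adjusted p = 0.055) and Csf2ra (-0.51, adjusted p = 0.13, and 0.29 with spike-in scaling). With spike-in scaling the calls of Csf1r (-2.14, adjusted p = 0.056), Csf2rb (1.43, adjusted p = 0.19) and Csf2rb2 (-1.03, adjusted p = 0.37) were lost. Those of Il7r (-4.70, adjusted p = 3.6e-05) and Lifr (-6.63, adjusted p = 2.9e-07) held, and Flt3 was called (-3.04, adjusted p = 0.034). Flt3 was also called without the first 12 h array (-5.47, adjusted p = 0.013), without either 3 h array or without quantile normalisation (adjusted p = 0.047 each), with an intensity trend (0.028) and with a floor of 64 (0.0012), and it was -1.43 without the second 12 h array (adjusted p = 0.41). The mean of its probe sets gave a call for Csf2ra (-0.69, adjusted p = 0.0074).

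Spike-in scaling, which sets the arrays by their spike-in control probe sets, moved the median of all genes to 0.60 after 3 h, 0.62 after 12 h, 0.17 after 24 h and 0.41 after 48 h. Relative to these medians Il7r was at -2.59 after 3 h and -4.88 after 12 h, Csf1r at 1.81 after 12 h and 6.59 after 48 h, and Csf2ra at -0.48 after 3 h. The mean log2 signal of the spike-in probe sets was 8.25 in vehicle C10, 7.53 at 3 h and 7.66 at 48 h, where the 2 arrays differed most (SD 0.74). The Actb 5′ to 3′ signal ratio, a measure of RNA integrity, was 0.610 in vehicle C10 and 0.765 to 0.825 after induction. The second 3 h array had an 18S ribosomal RNA signal of 5929, against 328 to 1010 in the other arrays. The part of these differences in the receptor changes was not tested.

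By step, 6 of the 8 receptors were called from 3 h to 12 h (5 higher and 1 lower) against 33.2% of all genes (16.6% in each direction). From 12 h to 24 h 7 were called (6 higher and 1 lower) against 45.4% (22.3% and 23.1%), and from 24 h to 48 h 2 were called, Il7r and Lifr, both higher, against 27.4% (9.47% higher). Spike-in scaling left 3, 3 and 1 calls.

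Of the 8 receptors, 1 differed by the test between HAFTL and vehicle C10, against 15.2% of all genes (7.11% higher and 8.12% lower). In HAFTL the difference of Lifr was -1.49 ± 0.24 (adjusted p = 0.0071, limma), lower than in vehicle C10, and -1.41 with spike-in scaling (adjusted p = 0.23). For Csf2rb and Csf2rb2 the 95% intervals of the difference ran from -0.27 to 0.10 and from -0.19 to 0.25. HAFTL had received the hormone, so each time was also set against it. These comparisons share their C10 arrays with those above. Against HAFTL 5 of the 8 were called at 3 h (1 higher and 4 lower, against 50% of all genes, of which 22.3% higher and 27.8% lower). At 12 h 6 were called (4 higher and 2 lower, against 51.2%, of which 22.6% and 28.6%). At 24 h it was again 6 (5 and 1, against 57.6%, of which 23.8% and 33.8%), and at 48 h 7 (6 and 1, against 62.5%, of which 24.2% and 38.3%). The change of Il7r against HAFTL was -3.20, -5.45, -6.32 and -4.87 at the 4 times, and Csf1r was higher by 6.04 at 48 h (limma, adjusted p at most 8.8e-07 for these).

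At 3 h Csf1r was lower than in HAFTL, with a difference of -0.50 (adjusted p = 0.033, limma), a call lost without either HAFTL array (adjusted p = 0.076 and 0.13), without the second 3 h array (-0.25, adjusted p = 0.16), without the second 24 h array (adjusted p = 0.05) and with spike-in scaling (-0.02). It was also lost without a filter on dim genes (adjusted p = 0.057), with the mean of the Csf1r probe sets (-0.25, adjusted p = 0.077) and with only the groups compared in the fit (adjusted p = 0.14). Neither of the other Csf1r probe sets was called (-0.25, adjusted p = 0.32, and -0.0016, adjusted p = 1, limma). Csf2ra was also lower than in HAFTL at 3 h (-0.76, adjusted p = 0.0033, limma). That call was lost with spike-in scaling (-0.27, adjusted p = 0.7) and with the mean of the Csf2ra probe sets (-0.16, adjusted p = 0.19), and probe set 1420704_at lay on the other side, with 0.45 (adjusted p = 0.071). Lifr was higher at 48 h than in HAFTL by 1.39 ± 0.24 (adjusted p = 0.0013, limma).

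The labelled cell types were checked against lineage markers. All 12 tested B lineage markers were lower at 12 h, 24 h and 48 h, and 11 at 3 h, when their summed signal was 57349.7 to 58154 against 140566 to 140658 in vehicle C10. At 48 h that sum was 19696 to 21235. Among all genes tested 27.3%, 28.7%, 33.3% and 38.2% were called lower at the 4 times, and 20.9%, 22.3%, 24.2% and 24.2% higher. With spike-in scaling 5, 8, 8 and 10 of the 12 markers were lower, and the shares of all genes called under that scaling are not given. Of 9 tested macrophage markers 3 were higher and 2 lower after 3 h, 4 and 2 after 12 h, and 8 and 0 after both 24 h and 48 h. Mmp12, Cd14, Mpeg1, Msr1 and Itgam had neither vehicle array above the filter level and entered the test through other groups. The macrophage counts are therefore not read as support for the cell types. Of the tested markers with both vehicle arrays above that level, Lyz2, Fcgr1 and Cd68 were higher at 48 h, by 7.51, 5.59 and 2.74. Adgre1 was not called there (0.76, adjusted p = 0.15, limma). The summed signal of the 10 macrophage markers on the array was 1194 to 1205 in vehicle C10, 1598 to 1769 after 3 h, 8166 to 8397 after 12 h, 78436 to 79466 after 24 h and 137828 to 138833 after 48 h. These sums moved with the fall of Il7r and the rise of Csf1r, and their part in them was not tested. The mast cell and basophil markers, 7 of 7, were under the filter level in every group.

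The genes whose 6 group means followed those of Il7r most closely, among the genes tested, were Slamf7 (Pearson r = 0.996), Zfp955a (0.993), Zfp790 (0.993), Zfp462 (0.992) and Senp6 (0.992). Their falls at 24 h were smaller than that of Il7r, at -4.28 for Slamf7, -0.78 for Zfp955a, -0.66 for Zfp790, -2.16 for Zfp462 and -1.10 for Senp6. Closest to Csf1r were Ifitm1 (r = 0.999), Pla1a (0.998), Mir22hg (0.998), Fcgr3 (0.998) and Csf2rb2 (0.998). At 48 h Ifitm1 was higher by 8.67, Fcgr3 by 8.23, Pla1a by 6.39 and Mir22hg by 4.99. Over the same 6 means Csf2rb had r = -0.93 with Il7r and 0.93 with Csf1r. These correlations describe 6 means from shared arrays and carry no test.

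Ligands of the receptors were mostly dim. Of 10 ligand genes on the array 3 passed the filter, and Lif and Il7 did so without either vehicle array, through groups in which they were high, so no count is read from them. At 48 h Lif was higher by at least 4.94-fold and Il7 by at least 1.49-fold, bounds given because both arrays of vehicle C10 lay under the filter level. Csf1, which encodes M-CSF, was higher at 48 h by 2.66 ± 0.09 on the log2 scale (adjusted p = 2.6e-07, limma). At 3 h Csf1 was lower (-0.52, adjusted p = 0.0025, limma), a change that was 0.10 with spike-in scaling. Among partner chains, Il6st, the gp130 chain that pairs with Lifr, did not pass the test after 3 h (-0.14, and 0.48 with spike-in scaling) and was higher by 0.92 after 12 h and 2.96 ± 0.10 after 48 h (adjusted p = 0.00019 and 2.4e-07). Crlf2, the thymic stromal lymphopoietin receptor chain that pairs with Il7r, was higher by 1.30 at 24 h and 1.13 ± 0.22 at 48 h (adjusted p = 0.0013 and 0.0023, limma).

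Other cytokine and growth factor receptors were called lower more often than higher at first and higher more often later. Of 23 tested, 5 were higher and 12 lower after 3 h, 4 and 9 after 12 h, 13 and 2 after 24 h, and 13 and 4 after 48 h. Il13ra1 and Il2rb had neither vehicle array above the filter level and entered the test through other groups. The counts called higher at 3 h, 24 h and 48 h include Il13ra1, which therefore adds no support, and Il2rb was not called. Among all genes tested 20.9% were called higher and 27.3% lower after 3 h, 22.3% and 28.7% after 12 h, 24.2% and 33.3% after 24 h, and 24.2% and 38.2% after 48 h. The median change of the 23 was -0.49, -0.31, 0.88 and 0.86, beside the medians of all genes given above. With spike-in scaling the counts were 4 and 2, 4 and 1, 8 and 0, and 12 and 0, so calls at 3 h and 12 h no longer leaned lower. That scaling also raised the median of all genes, to 0.60 after 3 h and 0.62 after 12 h. The median of the 23 stayed under it, at 0.15 and 0.36. Shares of all genes called under spike-in scaling are not given here or for the lists below. The largest rises at 48 h were those of Il6ra, the interleukin-6 receptor chain (2.85 ± 0.15, adjusted p = 1.8e-06), Tnfrsf1a, a tumour necrosis factor receptor (2.52 ± 0.62, adjusted p = 0.0083), and Tnfrsf1b, the other one (1.85 ± 0.11, adjusted p = 4.1e-06, limma). Il13ra1 was higher at 48 h by at least 1.13-fold, a bound given because both arrays of vehicle C10 lay under the filter level.

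**Figure D4:**
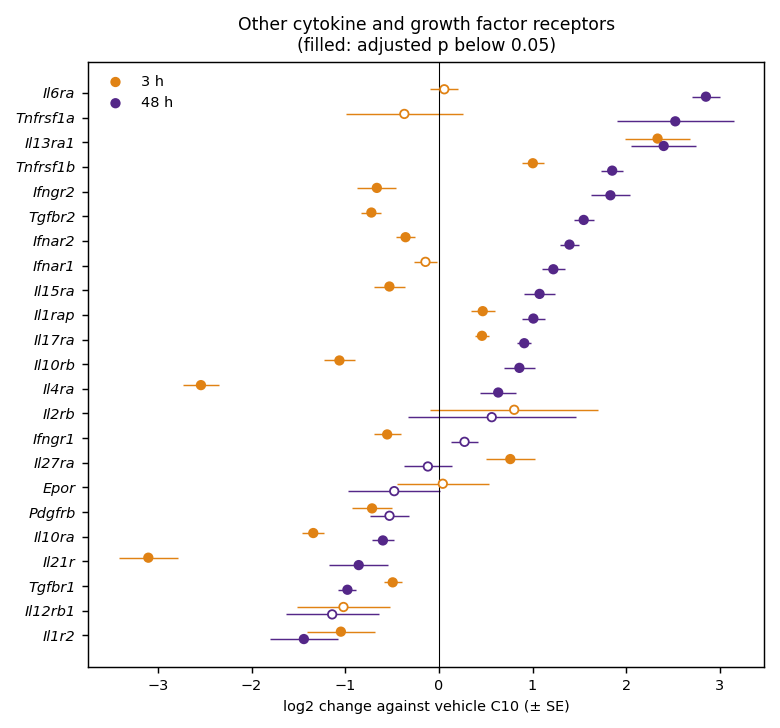
Log2 change against vehicle C10 (horizontal axis, bars are SE) of 23 other cytokine and growth factor receptor genes at 3 h (orange) and 48 h (purple), ordered by the 48 h change; filled points passed adjusted p below 0.05. At 3 h 12 genes are called lower and at 48 h 13 are called higher, with Il6ra at 2.85. With spike-in scaling the 3 h counts turn to 4 higher and 2 lower. Il13ra1 and Il2rb had neither vehicle array above the filter level, and Il12rb1 neither 48 h array, so the sizes of these changes are uncertain.

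Genes of receptor signalling moved both ways. Of 15 tested, 3 were higher and 8 lower after 3 h, 4 and 6 after 12 h, 7 and 3 after 24 h, and 7 and 4 after 48 h (median -0.38, 0.07, 0.16 and 0.25). Among all genes tested the shares called higher and lower were 20.9% and 27.3% after 3 h, and 22.3% and 28.7% after 12 h. They were 24.2% and 33.3% after 24 h, and 24.2% and 38.2% after 48 h. With spike-in scaling the counts of the 15 were 2 and 1, 4 and 0, 5 and 0, and 6 and 0. Named by size at 48 h were Pik3r1, a regulatory subunit of phosphoinositide 3-kinase (1.78 ± 0.13), Gab2, an adaptor (1.45 ± 0.10), Stat3, a transcription factor activated by gp130 receptors (1.42 ± 0.07), and Tyk2, a Janus kinase (1.27 ± 0.08), all with adjusted p at most 1.2e-05 (limma). Stat3 was already higher by 2.05 at 3 h (adjusted p = 1e-06).

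Of 12 inhibitors of receptor signalling 2 were higher and 7 lower after 3 h, 1 and 6 after 12 h, 7 and 3 after 24 h, and 8 and 3 after 48 h (median -0.60, -0.44, 0.50 and 0.63), and with spike-in scaling 0 and 0, 1 and 0, 4 and 1, and 6 and 0. The shares of all genes called without spike-in scaling are those given for the signalling genes, from 20.9% higher and 27.3% lower after 3 h to 24.2% and 38.2% after 48 h. Socs1 and Socs3, inhibitors of Janus kinase signalling, were higher at 48 h by 2.22 ± 0.32 and 2.10 ± 0.17 (adjusted p = 0.00051 and 2.1e-05), and the adaptor Dok2 by 1.63 ± 0.22 (adjusted p = 0.00033, limma). Inpp5d, the phosphatase SHIP1, was lower at 48 h (-1.78 ± 0.11, adjusted p = 3.7e-06, limma), and stood at -1.15 with spike-in scaling (adjusted p = 0.059).

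Transcription factors known to act on the Il7r or Csf1r genes were also read. Of 12 tested, 6 were higher and 6 lower after 3 h, 5 and 5 after 12 h, and 5 and 7 after both 24 h and 48 h (median -0.30, 0.15, -0.64 and -0.51). The same shares of all genes stand beside them, from 20.9% higher and 27.3% lower after 3 h to 24.2% and 38.2% after 48 h. With spike-in scaling the counts were 6 and 3, 5 and 2, 5 and 2, and 5 and 2. Foxo1, a factor that drives Il7r in lymphocytes, fell, with changes of -3.60 ± 0.11 at 3 h and -3.63 ± 0.11 at 48 h (adjusted p = 8.2e-07 and 1.7e-07). Ebf1, a B lineage factor, gave -1.68 after 3 h and -2.37 ± 0.13 after 48 h (adjusted p = 3.2e-05 and 2e-06, limma), and -0.83 after 3 h with spike-in scaling (adjusted p = 0.18). Runx1, a factor of several blood lineages, was higher by 0.60 at 3 h and 2.06 ± 0.15 at 48 h (adjusted p = 0.012 and 9.5e-06, limma). Cebpb, a C/EBP factor of macrophages, was lower at 3 h (-1.15, adjusted p = 0.00079, and -0.51 with adjusted p = 0.44 under spike-in scaling) and higher by 2.83 ± 0.16 at 48 h (adjusted p = 2.9e-06).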

How the data were processed

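RNA of the 12 samples, extracted with Trizol, was labelled with biotin and hybridised to 1-colour mouse arrays, per the labels. The authors deposited 1 linear intensity for each of 45101 probe sets. Arrays had already been brought to a like scale, by methods not given in the sources used here. The number of arrays limits the precision. Sample titles gave the groups and the replicate numbers.

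Intensities were put on the log2 scale and quantile normalised, 64 control probe sets were dropped, and signals under 16 were set to 16, which makes changes of dim genes look smaller. Probe sets took their gene names from the platform annotation, and 34741 of 34945 with a single gene were found in RefSeq (GRCm38.p6). Each gene was represented by its probe set of highest mean. Genes entered the test with a log2 signal over 6.22 (a signal of 74.6), the median of all values, in 2 or more arrays, which left 11696. Probe sets were also fitted singly, with adjustment over the 26524 that passed.

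Tests were made with limma (version 3.58.1, under R 4.3.3) on all 12 arrays together, each group having a mean of its own, two-sided, with Benjamini-Hochberg adjustment over all genes tested and a threshold of 0.05. The fit, with 6 residual and 1.53 prior degrees of freedom, was tested on simulated data. For a group under the filter level in both arrays, a change is given as at least so many fold against that level. Named were all 10 receptors, up to 4 genes of each list with the largest called change at 48 h and no overlap with vehicle C10, and the 5 genes most like Il7r and Csf1r. The receptors and lists were chosen with earlier results of these data known.

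Alternatives were other scalings (none, median centring, spike-in controls), no filter or one at the 70th percentile, the mean of probe sets, each probe set alone, a replicate block, a fit to only the groups compared, an intensity trend, a robust prior, floors of 1 and 64, a pseudocount of 16, and leaving out each array.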

Additional observations from a re-analysis of the deposited data

Results flagged for a closer look

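Csf2ra was called lower than vehicle C10 at 3 h and higher at every later time, so its changes were set against each other. A pair of times was flagged only where the difference between them was also called. The adjusted p-values below are therefore part of the choice and give no further support. The difference was 1.66 ± 0.15 on the log2 scale between 12 h and 3 h (SE, n = 2 per group, limma with Benjamini-Hochberg adjustment, adjusted p = 2e-04), 3.23 between 24 h and 3 h (adjusted p = 1.2e-06) and 3.39 between 48 h and 3 h (adjusted p = 5.4e-07). Both arrays of each later time lay above both 3 h arrays. The change at 3 h was itself -0.45 against vehicle C10, and it turned to 0.12 with spike-in scaling. Its call was also lost in the other settings named above for Csf2ra. For probe set 1420704_at the fall at 3 h was not called (-0.14, adjusted p = 0.55). Nor was its difference between 12 h and 3 h (0.34, adjusted p = 0.2, limma).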

How the results depend on the processing

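Over 26 alternatives, the number of receptors called in the 13 comparisons stayed within 1.5 times its value in 322 cases and not in 16. Spike-in scaling gave 0 calls in HAFTL against vehicle C10, 3 at 3 h against HAFTL, 3 from 3 h to 12 h, 3 from 12 h to 24 h, 1 from 24 h to 48 h and 3 for timing. In HAFTL against vehicle C10 the count was 2 with the stricter filter, the mean of probe sets, an intensity trend or a floor of 64. At 3 h against HAFTL it was 3 with the mean of probe sets. From 24 h to 48 h it was 4 with a floor of 64, and ranged from 1 to 3 when 1 array was left out. It was 1 without any array of those times, where the call of Lifr was lost, and 3 without either 3 h array, where Csf1r was called.

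Directions turned for Csf2rb2 at 3 h (-0.13 without quantile normalisation, -0.019 with median centring, and from -0.021 to 0.035 when 1 array was left out, with the low value for the first vehicle array), and with spike-in scaling for Csf1r at 3 h (0.42), Csf2ra at 3 h (0.12), Lifr at 48 h (0.46) and the timing of Csf2ra (0.29). Lifr at 48 h also turned with the mean of probe sets (0.15) and, over left-out arrays, ranged from -0.21 to 0.0054, turning without the first 48 h array. Over left-out arrays Il3ra at 3 h ranged from -0.057 to 0.35, turning without the first 3 h array, and Csf1r at 3 h from -0.42 to 0.071, turning without the second. With all arrays and the main settings none of these was called except Csf2ra at 3 h, and the causes were not tested. Calls of Csf1r at 3 h and of the timing of Csf2ra in other settings are given above.

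Replicate numbers did not pair the samples: over 15 pairs of groups the deviations of same-numbered arrays correlated at -0.03 to 0.04. With the replicate number as a block, 4, 6, 7 and 6 receptors were called at the 4 times against vehicle C10, as without it. Signal near the filter level limits what can be said of Flt3, Csf3r and Kit, and 2 arrays a group limit small changes such as those at 3 h.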
